A study of Mus musculus with 2 samples.

Results

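Molecular chaperones of the heat shock protein and DnaJ families were examined for N4-acetylcytidine (ac4C), an acetylated form of cytidine in RNA, in the mouse uterus. The members were the protein-coding genes on chromosomes 1 to 19 of the RefSeq GRCm38 gene table whose symbols begin with Hspa, Hspb, Hspd, Hspe, Hsph, Hsp90, Dnaja, Dnajb or Dnajc followed by their number. There were 72 such genes among 20661 protein-coding genes on these chromosomes, in 8 families. Of the 72, 13 were Hspa, 8 Hspb, 2 Hspd and Hspe, 1 Hsph, 3 Hsp90, 4 Dnaja, 13 Dnajb and 28 Dnajc genes.

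The study pulled down RNA fragments with an ac4C antibody from polyA RNA of whole uteri, taken from wild-type mice at gestational day 4, and compared them with an input control of the same tissue that was not pulled down. There was 1 immunoprecipitation library and 1 input library, with no treatment or altered genotype, so no value below has a replicate check. Strain, age and the number of animals behind each library were not given in the sources used here. The authors deposited 1 list of 21192 peaks, and a peak was given to a gene when its summit lay in the gene span, introns included. The whole tissue mixes epithelium, stroma and muscle, so a peak cannot be traced to a cell type, and fewer cells of a type cannot be told apart from less RNA per cell.

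Chaperones of the HSP70 family (Hspa genes) bind unfolded stretches of proteins in a cycle driven by ATP. J-domain proteins (Dnaj genes) deliver clients to HSP70 and start ATP hydrolysis, and exchange factors then release the bound nucleotide. Small heat shock proteins (Hspb genes) hold unfolded proteins without ATP, Hspd1 and Hspe1 form the mitochondrial chaperonin, and HSP90 matures kinases and steroid receptors. In the uterus the progesterone receptor, on which implantation depends, is a known client of the HSP70 and HSP90 machinery.

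The stress-inducible members of these families are known for heat shock elements in their promoters, inverted repeats of GAA bound by heat shock factor 1. Promoter sequences are shown for 3 members whose peaks were among the highest, 2 of them reaching or nearing the start of the gene, and for 2 members with the full element. Dnajb12, whose highest peak (12.7) lay between those of Hspa1a and Hspa1b in fold enrichment, is not shown. The sequences come from RefSeq (GRCm38.p6), cover the 250 bases before the annotated start site and are written 5′ to 3′ on the strand of the gene. Capitals mark GAANNTTC or TTCNNGAA in the first 3 sequences, and the 3-unit element, GAANNTTCNNGAA or TTCNNGAANNTTC, in the last 2. Hspa1b lies on the minus strand at chr17:34959239-34959488 and Hspa1a on the minus strand at chr17:34972157-34972406. Hspb1 (chr5:135887669-135887918) and Dnajb6 (chr5:29735648-29735897) lie on the plus strand. For Hspe1, which held no peak, only 30 bases around the element are shown (chr1:55088053-55088082, plus strand).
Hspa1b: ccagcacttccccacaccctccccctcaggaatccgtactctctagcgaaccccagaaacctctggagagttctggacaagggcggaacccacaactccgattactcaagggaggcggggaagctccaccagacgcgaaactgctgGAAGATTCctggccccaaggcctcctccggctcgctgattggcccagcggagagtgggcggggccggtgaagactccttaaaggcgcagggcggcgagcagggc
Hspa1a: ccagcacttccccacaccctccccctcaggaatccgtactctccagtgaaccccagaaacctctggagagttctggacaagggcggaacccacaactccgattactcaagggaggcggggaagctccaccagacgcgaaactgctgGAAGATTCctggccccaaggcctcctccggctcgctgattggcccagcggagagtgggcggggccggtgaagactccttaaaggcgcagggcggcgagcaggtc
Hspb1: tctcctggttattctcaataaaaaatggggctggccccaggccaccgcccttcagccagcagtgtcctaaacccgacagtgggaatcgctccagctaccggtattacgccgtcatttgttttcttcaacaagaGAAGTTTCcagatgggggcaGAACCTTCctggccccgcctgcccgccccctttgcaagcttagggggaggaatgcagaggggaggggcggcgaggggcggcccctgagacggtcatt
Dnajb6: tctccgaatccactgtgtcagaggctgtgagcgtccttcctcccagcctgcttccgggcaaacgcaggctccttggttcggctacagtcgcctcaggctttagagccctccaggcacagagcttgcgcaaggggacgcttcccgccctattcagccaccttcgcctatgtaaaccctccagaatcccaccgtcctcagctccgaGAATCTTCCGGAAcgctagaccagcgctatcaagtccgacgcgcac
Hspe1: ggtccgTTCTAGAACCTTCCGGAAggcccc

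A promoter window was found for 58 of the 72 members. The 3-unit element stood in the 250 bases of 3 of these 58 genes (Hspd1, Hspe1 and Dnajb6), against 78 of 16456 protein-coding genes with a window (0.474%). Every 3-unit match also contains a 2-unit one. The 2 forms of the 3-unit element are reverse complements of each other and each 2-unit form is its own, so both strands were covered. Taken by window, as a gene can have several starts, the 3-unit element was in 5.33% of 75 member windows and 0.403% of 20084 windows. The member windows with it were those of Hspd1 and Hspe1, which overlap, and those of Dnajb6, which overlap too. The member counts thus repeat the same sites and rest on few of them. The 2-unit element was in 14 of 58 member genes and 13.7% of all genes. Of these 14, Hspa1a, Hspa1b, Hspb1, Hspb6 and Dnajb6 held a peak and the rest held none, while 19 of the 58 members with a window held one. No match of either length was found for Dnajb12. The sequences shown were picked, so they show no link between element and peaks. Of the 3 genes with the full element, Dnajb6 held a peak and Hspd1 and Hspe1, which share their promoter head to head, held none. The promoters of Hspa1a and Hspa1b were identical at 247 of 250 bases. Counting the base before the start as 1 and upward from there, the substitutions from Hspa1a to Hspa1b were C207T, T204C and T2G. These matches describe letters in a window, not bound sites.

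Of the 72 chaperone genes, 24 held a peak (33.3%, 95% Wilson interval 23.5 to 44.8%), against 31.7% of all protein-coding genes on the same chromosomes. The share was near the background and is not a result about chaperones as a whole. It covered 7 of 13 Hspa genes (53.8%, 29.1 to 76.8%), 3 of 8 Hspb genes (37.5%, 13.7 to 69.4%) and 1 of 3 Hsp90 genes. Among J-domain proteins it covered 5 of 13 Dnajb genes (38.5%, 17.7 to 64.5%), 8 of 28 Dnajc genes (28.6%, 15.3 to 47.1%) and 0 of 4 Dnaja genes, whose interval reached 49.0%. The mitochondrial chaperonin genes Hspd1 and Hspe1 and the HSP110 gene Hsph1 held none. Each of the 8 family intervals included the background share, so no family was set apart from other genes by its share alone. In all, the 24 genes held 48 peaks, 21 in Hsp genes and 27 in Dnaj genes.

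**Figure D1:**
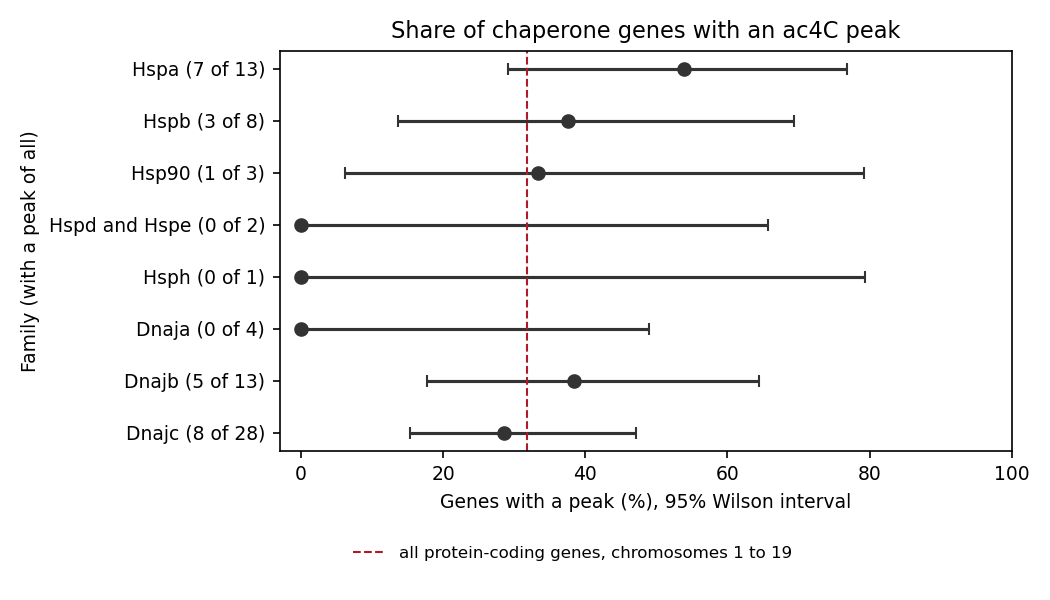
Share of genes with an ac4C peak (x axis, percent) in each chaperone family (y axis, with the number of genes with a peak of all genes); points are shares, bars 95% Wilson intervals, and the dashed line is the share of all protein-coding genes on chromosomes 1 to 19. The interval of every family crosses the dashed line at 31.7%, from Hspa at 53.8% to the 3 groups at 0%.

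The shares were also compared among genes of like length. Hsp genes had a median span of 5.48 kb and Dnaj genes of 23.8 kb, against 17.5 kb over all genes, and longer genes more often held a peak. In the class under 5 kb, 8 of 12 Hsp genes held a peak (66.7%, 95% interval 39.1 to 86.2%), against 16.8% of 4569 genes of that length. The same class held 2 of 10 Dnaj genes (20%, 5.67 to 51.0%). Near-identical copies are not independent, and with Hspa1a and Hspa1b counted as 1 gene the Hsp share was 63.6% (35.4 to 84.8%). Among genes of 5 to 20 kb, 2 of 10 Hsp and 4 of 10 Dnaj genes held a peak, against 30.7% of all. From 20 to 50 kb these counts were 1 of 3 and 5 of 20, against 34.1%, and from 50 kb they were 0 of 2 and 2 of 5, against 45.2%. Transcript abundance, which can raise the chance of a peak, was not matched in these classes, and its part was not tested.

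The fold enrichment of a peak, given by the authors' peak caller, is the signal at the summit over a background, and is used here only within this list. Fragment numbers behind it were recovered from the deposited fold enrichment and p-value. The 95% intervals are exact Poisson intervals of those numbers, which cover counting error only. They hold the background fixed, so error in the background is left out, also where intervals below do not overlap. The median fold enrichment at the highest peak was 6.83 (interquartile range 5.54 to 8.04) over the 24 chaperone genes and 6.62 (5.08 to 9.06) over the 6559 genes with a peak. Of the 24, 14 lay above the latter median. Hsp and Dnaj genes had medians of 6.48 and 6.83, and ranged over 2.27 to 20.9 in Hsp genes and 4.89 to 12.7 in Dnaj genes. The order from high to low began with Hspb1, Hspa1a, Dnajb12 and Hspa1b, whose intervals overlapped one another, and ended with Hspa8, Hsp90ab1 and Hspa5.

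**Figure D2:**
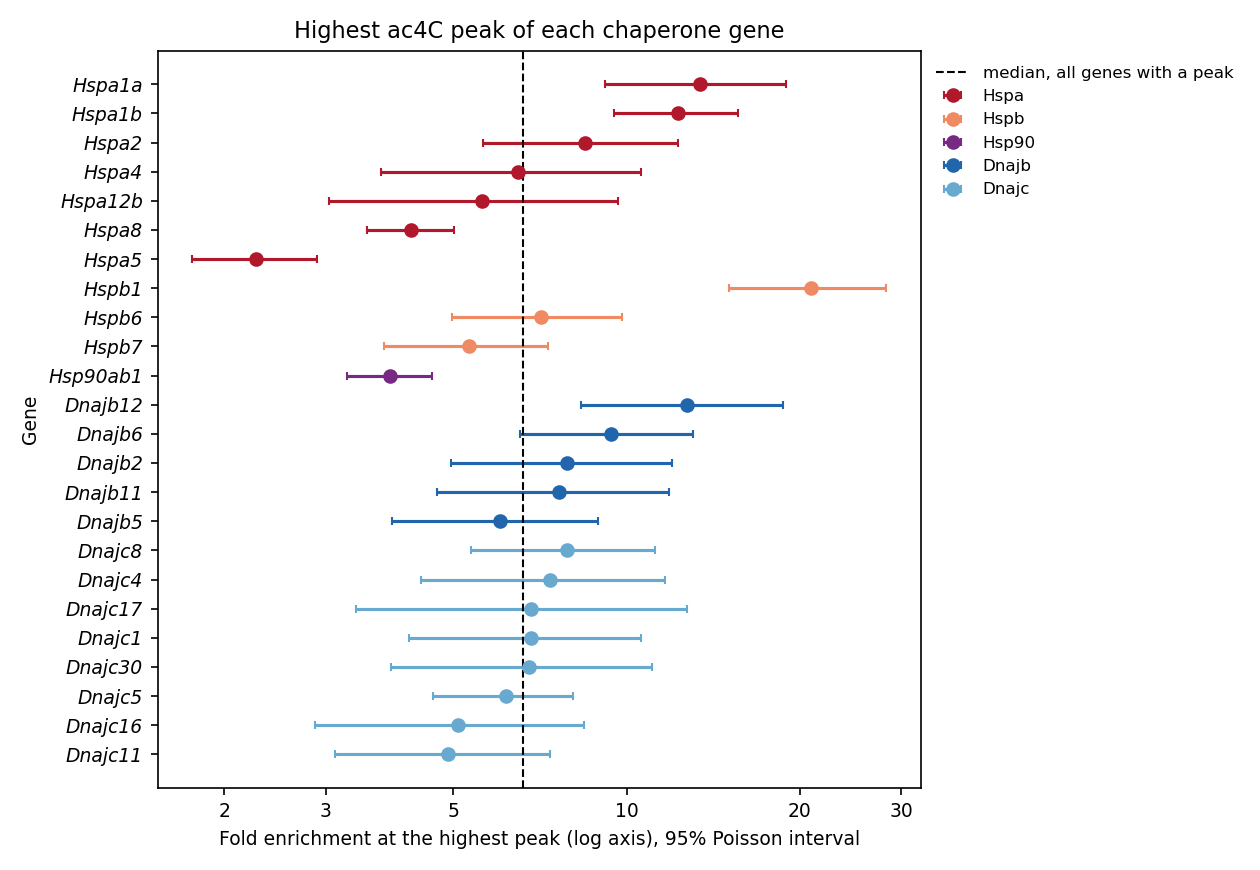
Fold enrichment at the highest peak of each of the 24 chaperone genes with a peak (x axis, log scale; y axis, genes by family); bars are 95% Poisson intervals and the dashed line marks 6.62, the median over genes with a peak. Hspb1 stands highest at 20.9 and Hspa5 lowest at 2.27, and the Dnaj genes lie between 4.89 and 12.7.

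The stress-inducible HSP70 genes Hspa1a and Hspa1b carried the widest chaperone peaks. Hspa1a (NCBI gene 193740) had 1 peak of 2019 bp at chr17:34970132-34972150, with a fold enrichment of 13.4 (95% interval 9.18 to 18.9) on 30 fragments over a background of 1.31. Hspa1b (NCBI gene 15511) had 1 peak of 2169 bp at chr17:34957085-34959253, at 12.3 (9.52 to 15.6) on 65 fragments over a background of 4.38. Both intervals lay above 6.62, the median over genes with a peak, and they overlapped each other. The full peak widths came to 72.2% and 77.2% of the gene spans. The peak of Hspa1a began 6 bp inside the start of the gene, and that of Hspa1b ran 15 bp beyond it, into the first of the promoter sequences above. Their summits lay apart, 334 bp from the start in Hspa1a and 1720 bp in Hspa1b. Both genes lack introns and encode nearly the same protein, so reads could be placed at either copy, and how the authors placed such reads was not given in the sources used here. The values of each copy are therefore uncertain.

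Hspa2, an HSP70 best known from male germ cells, had the remaining peak of over 1000 bp. It measured 1350 bp (chr12:76404448-76405797), with a fold enrichment of 8.47 (5.64 to 12.3) on 26 fragments. Its summit lay 808 bp from the start of the gene. In all, 3 of the 24 chaperone genes (12.5%) had a highest peak of at least 1000 bp, against 8.22% of the 6559 genes with peaks. All 3 were Hspa genes, and 2 of them are the near-identical Hspa1a and Hspa1b. With so few genes the share is not set apart from the background. Hspa1l, the HSP70 gene beside Hspa1a, held none.

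The peaks of Hspa8, Hsp90ab1 and Hspa5 had backgrounds of 17.5 to 65.2 fragments and fold enrichments of 1.61 to 4.22. Hspa8 (NCBI gene 15481), which encodes the cytosolic housekeeping HSP70, held 4 peaks between 40801844 and 40805030 on chromosome 9. In order of position their fold enrichments were 3.13, 1.61, 4.22 and 2.28, on 57, 78, 130 and 102 fragments. Intervals were 2.39 to 4.04, 1.27 to 2.0, 3.53 to 5.01 and 1.86 to 2.76, so the second peak was separated from the first and the third, but overlapped the last. The value of 1.61 was the smallest fold enrichment in the whole list. Backgrounds at these summits ran from 17.5 to 48.1 fragments.

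Hsp90ab1 (NCBI gene 15516), the constitutive cytosolic HSP90, held 5 peaks between 45567901 and 45571985 on chromosome 17. Their fold enrichments, in order of position, were 3.89, 2.54, 2.87, 2.23 and 3.63. The 5 summits rested on 139, 144, 81, 147 and 106 fragments over backgrounds of 27.6 to 65.2. The peaks at both ends, at 3.89 (3.27 to 4.58) and 3.63 (2.98 to 4.39), had intervals above that of the 2.23-fold peak (1.89 to 2.62). The peaks together covered 31.9% of the gene span. Its stress-inducible partner Hsp90aa1 and the endoplasmic reticulum (ER) form Hsp90b1 held no peak.

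Hspa5, which encodes the ER chaperone BiP, had a single peak of 219 bp (chr2:34775520-34775738). At 2.27 (1.76 to 2.89) on 64 fragments over a background of 27.6 it had the lowest of the 24 highest peaks. The summit also lay in the span of the neighbouring gene Rabepk, and as the list has no strand the peak cannot be assigned between them. Without peaks that lie in several protein-coding genes, Hspa5 held none.

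Low fold enrichment went with high background across the list, so these genes were also read against peaks of like background. The median fold enrichment was 3.35 among 672 peaks with a background of 16 to 32 fragments and 2.87 among 143 peaks with a background of at least 32. Each within its class and in order of position, the 4 Hspa8 peaks stood at percentiles 43.2, 0, 74.0 and 20.3. The 5 Hsp90ab1 peaks stood at percentiles 80.4, 33.6, 31.5, 18.2 and 59.1. Most peaks of both genes thus lay below the median of their class, and neither gene was high for its background as a whole. Among the highest peaks of all genes with a peak, those of Hspa8 and Hsp90ab1 stood at percentiles 12.6 and 8.75. Hspa5 was low on both scales, at percentile 9.82 of its background class and 0.564 of all genes with a peak. What set the background at these genes, such as abundance of the transcript, was not tested.

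**Figure D3:**
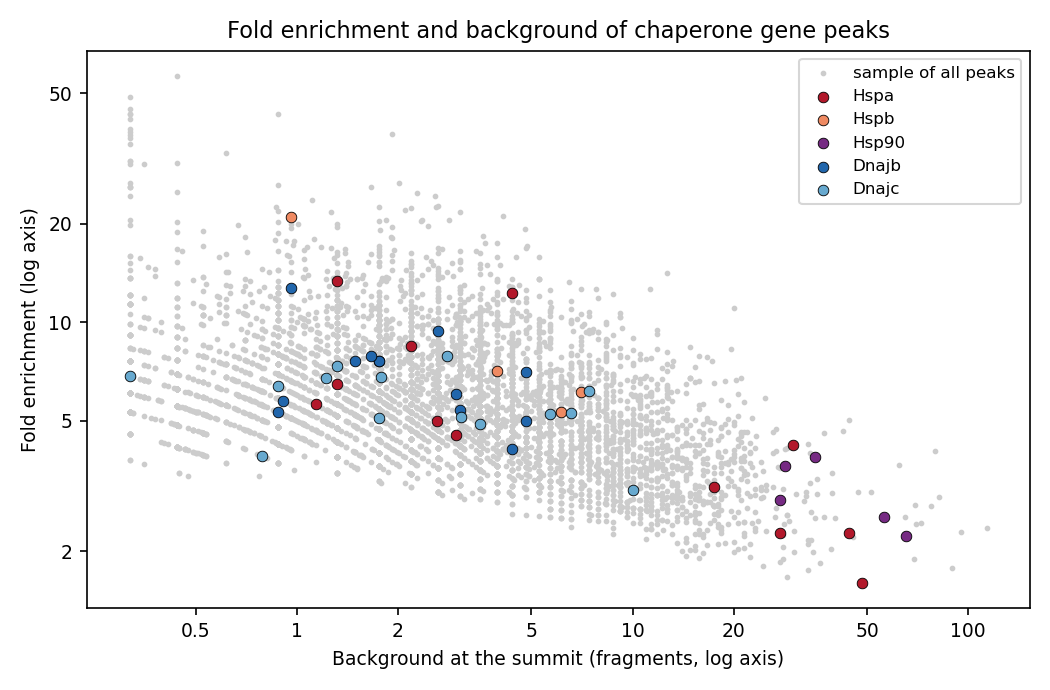
Fold enrichment (y axis, log scale) against background at the summit in fragments (x axis, log scale) for the 48 peaks of chaperone genes, coloured by family, over a random sample of 6000 of the 21192 peaks in grey. The peaks of Hspa8 and Hsp90ab1, with backgrounds of 17.5 to 65.2 fragments, sit at the lower right, and the first peak of Hspb1, at 20.9, is the highest coloured point.

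The other Hspa genes with a peak lay near the median. Hspa4, an HSP110-type exchange factor for HSP70, had 1 peak of 221 bp at chr11:53300131-53300351 and a fold enrichment of 6.48 (3.74 to 10.6) on 14 fragments. Its summit lay 228 bp from the start of a gene of 40666 bp. Hspa12b, a distant HSP70 relative of endothelial cells, held 3 peaks from 131131921 to 131145197 on chromosome 2, at 5.61, 4.53 and 4.99 on 11, 17 and 17 fragments. Their intervals overlapped. No peak was found in Hspa9, the mitochondrial HSP70, or in Hspa4l, Hspa12a, Hspa13 and Hspa14.

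Among small heat shock proteins, Hspb1 (NCBI gene 15507; HSP27 in humans, HSP25 in mice) had the highest fold enrichment of all chaperone genes. Its first peak, at chr5:135888020-135888365, stood at 20.9 (95% interval 15.1 to 28.3) on 40 fragments, at percentile 98.9 of all genes with a peak. The second, at chr5:135888867-135889452, stood at 6.12 (4.55 to 8.08) on 48 fragments. The intervals did not overlap, although the fragment numbers were close, since the backgrounds were 0.963 and 7.0. This separation thus rests on the backgrounds, whose own error the intervals leave out. The summits lay 288 and 1446 bp from the start of a gene of 1645 bp, and both peaks together covered 56.7% of it.

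Hspb6 (HSP20, abundant in smooth muscle) had 1 peak of 777 bp at chr7:30554307-30555083, at 7.09 (4.97 to 9.82) on 34 fragments. Hspb7, known from heart and muscle, had 1 peak of 907 bp at chr4:141423804-141424710, at 5.33 (3.80 to 7.30) on 37 fragments. Both intervals lay below that of the first Hspb1 peak and included 6.62, the median over genes with a peak. Their summits lay late in the genes, at 81.3% and 71.0% of the span from the start. Hspb2, Hspb3, Hspb8, Hspb9 and Hspb11 held no peak.

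**Figure D4:**
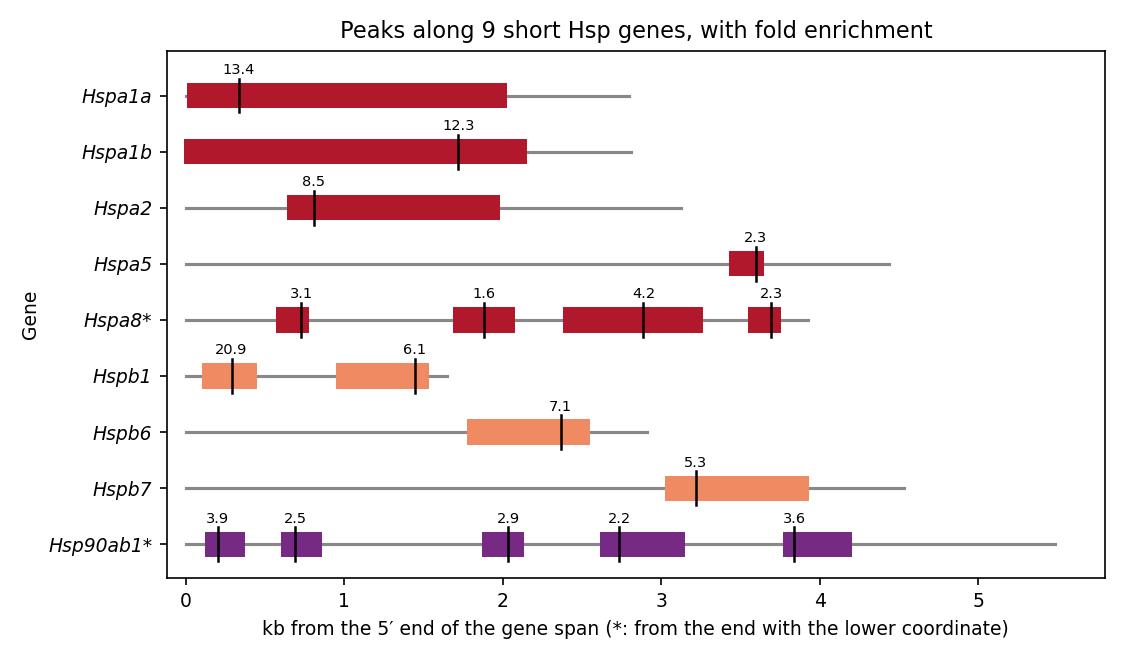
Peaks along the spans of 9 short Hsp genes (x axis, kb from the 5′ end of the span, or from the end with the lower coordinate for the 2 genes marked with an asterisk; y axis, genes). Boxes are peaks coloured by family, ticks are summits and numbers are fold enrichments; wide single peaks fill most of Hspa1a and Hspa1b, while Hspa8 and Hsp90ab1 hold 4 and 5 shorter ones.

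J-domain genes mostly had narrow peaks of moderate height. In Dnajb12, which encodes a J-protein of the ER membrane, 5 peaks lay between 59890644 and 59898852 on chromosome 10, the most of any Dnaj gene. In order of position they stood at 12.7, 4.99, 7.63, 7.05 and 5.41, on 24, 28, 20, 40 and 21 fragments. The first, at 12.7 (8.34 to 18.7), was separated by its interval from the second (3.37 to 7.13) and the fifth (3.44 to 8.14). Fragment numbers of these peaks were close, and error in their backgrounds (0.963, 4.81 and 3.06) is not in the intervals. At the summits of the 7.63-fold and 7.05-fold peaks the table also lists the long non-coding RNA gene Gm46226.

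The intervals of the highest peaks of the other 4 Dnajb genes overlapped one another. Dnajb6, a suppressor of protein aggregation with the 3-unit heat shock element shown above, had 1 peak (chr5:29781010-29781290) at 9.38 (6.54 to 13.1) on 33 fragments. It lay far from that promoter, 45260 bp from the start of a gene of 50581 bp. Dnajb2, a J-protein of neurons, held 2 peaks on chromosome 1, from 75240778 to 75243566, at 7.63 and 7.88 on 20 fragments each. Dnajb11, a cochaperone of BiP in the ER, held 2 on chromosome 16, from 22857910 to 22862655, at 5.76 and 7.64 on 10 and 18 fragments, the first with its summit 161 bp from the start. Dnajb5 held 3 on chromosome 4, from 42950347 to 42957486, at 5.33, 6.04 and 4.09 on 9, 23 and 21 fragments, and the interval of the last (2.60 to 6.16) lay below that of the Dnajb6 peak. No peak was found in Dnajb1, the main heat-inducible J-protein of the cytosol, or in Dnajb3, Dnajb4, Dnajb7, Dnajb8, Dnajb9, Dnajb13 and Dnajb14.

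The 4 Dnaja genes, Dnaja1 to Dnaja4, are the closest mammalian relatives of bacterial DnaJ. None of their spans held or touched a peak. Their spans, from 12498 to 23626 bp, lay in the range where about 30.7 to 34.1% of all genes held one. With 4 genes the Wilson interval allowed a share of up to 49.0%.

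Of the 28 Dnajc genes, 8 held a peak, with highest fold enrichments from 4.89 to 7.89. Dnajc8, a J-protein associated with splicing factors, held 3 peaks on chromosome 4 between 132544506 and 132553235, at 5.29, 7.89 and 3.07 on 39, 29 and 33 fragments. The intervals of the second (5.37 to 11.2) and the third (2.14 to 4.28) did not overlap. Their backgrounds were 2.80 and 10.1, and error in these is not in the intervals. Dnajc4 held 2 on chromosome 19, from 6987470 to 6989919, at 7.35 and 6.40 on 16 and 11 fragments, and the first ran past the annotated end of the gene. Dnajc17, a nuclear J-protein, held 2 on chromosome 2, from 119182959 to 119188186, at 3.92 and 6.83 on 6 and 8 fragments. The higher of these lay over the pseudogene Gm14138 as well, and its background of 0.317 was about the lowest in the whole list.

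Dnajc1, a J-protein of the ER membrane, held 3 peaks on chromosome 2 between 18208647 and 18392756, at 5.23, 5.13 and 6.82 on 34, 20 and 18 fragments, and the first of them also lay in Mllt10. Dnajc30, a mitochondrial J-protein, had 1 peak (chr5:135064354-135064706) at 6.77 (3.90 to 11.0) on 14 fragments, inside the span of Bud23 as well. These shared summits cannot be assigned to either gene. Dnajc5, Dnajc11 and Dnajc16 had 1 peak each, at 6.16, 4.89 and 5.09. The intervals of the highest peaks of all 8 genes overlapped. The 20 Dnajc genes with no peak were Dnajc2, Dnajc3, Dnajc5b, Dnajc5g, Dnajc6, Dnajc7, Dnajc9, Dnajc10, Dnajc12 to Dnajc15, Dnajc18, Dnajc19, Dnajc21, Dnajc22, Dnajc24, Dnajc25, Dnajc27 and Dnajc28.

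No enrichment detected at this depth is not the same as no ac4C, as the background of a gene with no peak was not in the list. Of the 48 chaperone genes with no peak, 0 were touched by a peak whose summit lay outside. The table also names 34 pseudogenes after members, 23 of them after Hspd1, and 0 of the 34 held a summit. The share of all pseudogenes with a summit was not counted, so this is not a result about these pseudogenes.

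The medians of Hsp and Dnaj genes lay further apart in peak width than in fold enrichment, and the difference was not tested. The highest peak had a median width of 777 bp in the 11 Hsp genes (219 to 2169 bp) and of 312 bp in the 13 Dnaj genes (201 to 934 bp), against 335 bp over all genes with a peak. It was wider than that median in 7 of 11 Hsp and 4 of 13 Dnaj genes. By family the median was 887 bp in Hspa, 777 bp in Hspb, 263 bp in Dnajb and 338.5 bp in Dnajc genes. Over 24 genes together it was 325 bp. The ranges of Hsp and Dnaj genes overlapped widely, and 561.5 bp was the Hsp median with Hspa1a and Hspa1b counted as 1 gene. With relatives under other symbols added it was 413.5 bp. Peaks covered a median of 31.9% of the span of Hsp genes with a peak and 1.93% of that of Dnaj genes, which are longer. Widths were measured along the genome, and the part of introns in them was not tested.

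**Figure D5:**
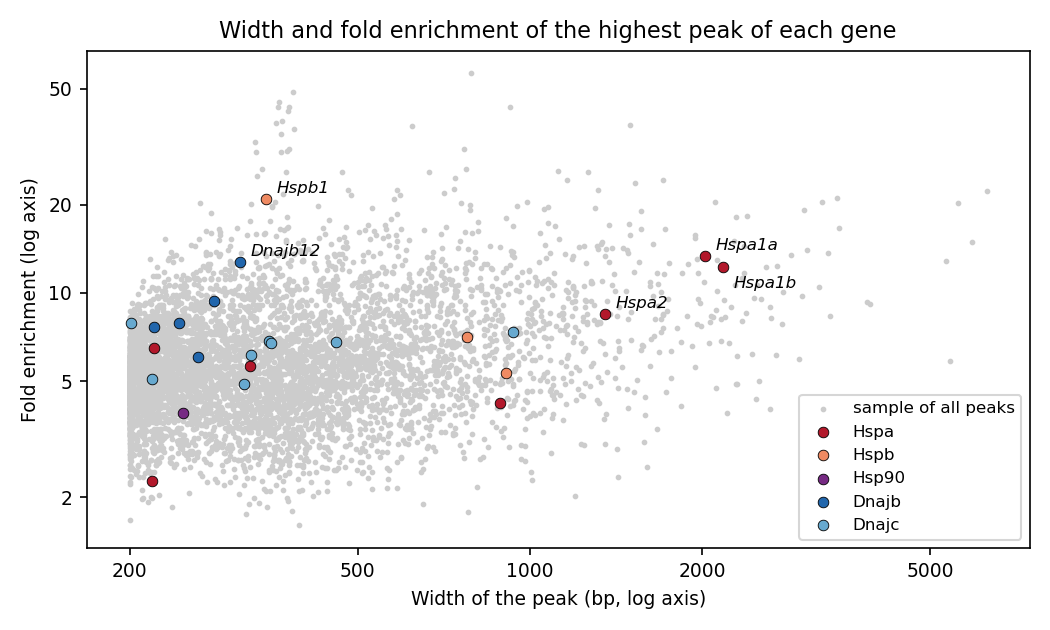
Width of the highest peak in bp (x axis, log scale) against its fold enrichment (y axis, log scale) for the 24 chaperone genes with a peak, coloured by family, over a random sample of 6000 of all peaks in grey. Hspa1a, Hspa1b and Hspa2 lie to the right with 1350 to 2169 bp, and Hspb1 lies highest with 346 bp.

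Strand was known for 19 of the 24 genes with a peak, which held 36 peaks. Their summits lay at a median of 62.6% of the span from the start, against 70.2% for 15871 peaks of all genes with a known strand. With spans divided into 3 equal parts, 11 summits lay in the part at the start, 9 in the middle and 16 in the part at the end. Over all genes these parts held 22.8%, 23.8% and 53.4% of summits. Within 1 kb of the start lay 6 of the 36 (16.7%), against 9.47% over all genes. These were 4 of 12 summits in Hsp genes (33.3%) and 2 of 24 in Dnaj genes (8.33%). Gene length was not matched, and Hspa1a, Hspa2 and Hspb1 span only 2798, 3127 and 1645 bp. The 6 summits belonged to Hspa1a, Hspa2, Hspa4, Hspb1, Dnajb5 and Dnajb11. Exons were not used here, so summits in introns and exons were not told apart. The repeat CNNCNNCNNCNN, of the kind reported around ac4C sites, was searched in the first 50 transcribed bases on the sense strand only. It stood in 21 of 58 members (36.2%) and 28.8% of all genes with a window. Of these 21 members, 5 held a peak (Hspb1, Hspb7, Dnajb12, Dnajc1 and Dnajc4), against 31.7% of all protein-coding genes. The share with a peak among all genes with the repeat was not counted, so no link between repeat and peaks is shown.

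Genes that work with these chaperones were described through lists. Of 17 HSP90 cochaperones 10 held a peak (58.8%, 95% interval 36.0 to 78.4%), with a median fold enrichment of 5.96 at the highest peak. The highest were Tomm34 at 10.7 (7.0 to 15.7), the myosin chaperone Unc45b at 8.20 (4.32 to 14.5) and the phosphatase Ppp5c at 7.63 (5.23 to 10.8). Of the cochaperones of steroid receptors, Fkbp5 and Ptges3 (p23) held 1 peak each, at 5.79 and 6.14, while Fkbp4 and Stip1 held none. Their values were known when these 4 were picked.

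A peak was found in 6 of the 11 HSP70 cochaperones and exchange factors that the gene table names (54.5%, 28.0 to 78.7%). Bag6, which guards proteins with membrane anchors, reached 18.3 (14.6 to 22.6) on 83 fragments with 9 peaks, and Bag3, a partner of small heat shock proteins in autophagy, reached 16.2 (12.6 to 20.6) on 65 fragments with 4. Bag1, an exchange factor, stood at 8.18 (5.97 to 11.0). The intervals of Bag6 and Bag3 overlapped that of the first Hspb1 peak.

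Heat shock factor 1, Hsf1, held 4 peaks, the highest at 11.1 (8.36 to 14.5) on 52 fragments, and was the only 1 of 5 genes in the list of heat shock factors with a peak. Hsf2, Hsf4, Hsf5 and Hsbp1 held none. In the list of the cytosolic chaperonin CCT and its partner prefoldin, 1 of 13 genes held a peak (7.69%, 1.37 to 33.3%), namely Cct4 at 5.12 (3.53 to 7.20).

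In the ER folding and unfolded protein response list, 10 of 23 genes held a peak (43.5%, 25.6 to 63.2%). Highest were Atf6b, a membrane-bound transcription factor of the stress response, at 10.7 (6.73 to 16.2), and the disulfide isomerases Pdia3 at 9.17 (5.39 to 14.8) and P4hb at 7.74 (5.67 to 10.3). Of 8 relatives of the families under other symbols, 4 held a peak. Cryab, the small heat shock protein alpha B-crystallin, stood at 8.72 (5.66 to 12.9), the J-protein Gak at 6.66 (4.54 to 9.47) and the HSP110 relative Hyou1 at 4.38 (2.78 to 6.58). The intervals of 5 of the 6 lists included the background of 31.7%. That of the HSP90 cochaperones lay above it, but not under stricter filters on peaks. With a −log10 q of 10 or more their interval was 13.3 to 53.1%, against 18.3% of all genes, and with fold enrichments from 5.58 it was 17.3 to 58.7%, against 21.2%. The lists were chosen with earlier results of these data known.

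Markers were set beside the tissue label, although a peak shows enrichment over background and not expression, so they cannot check the label directly. A peak was found in 5 of 6 markers of uterine epithelium, 6 of 6 of stroma, 6 of 6 of smooth muscle, 3 of 4 of endothelium and 2 of 4 of immune cells. Of 6 markers of liver, heart, brain and pancreas, 0 held a peak. The median summit of the whole list rested on 22 fragments.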

How the data were processed

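Peaks came from 1 narrowPeak list without a header, deposited by the authors for the pair of libraries (1 immunoprecipitation, 1 input). Per the submitters' processing notes, HISAT2 2.2.1, MACS3 3.0.0a7 and build mm10 were used, and settings were not given in the sources used here. The fold enrichment (a ratio), the −log10 p-value and q-value, and the score (−log10 q times 10) of each peak are the deposited values, and the largest q was 0.0499. Summits and peak edges were used as deposited, counted from 1.

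Fragments at each summit were recovered as the whole number for which fold enrichment, with a pseudocount of 1, and the Poisson p-value both matched. This succeeded for 21192 of 21192 peaks, and the step returned the right number in 100% of 2000 simulated peaks. The simulated peaks were made with the same formula, so they check the arithmetic only, not how the peak caller formed its values. Which signal the background came from was not given in the sources used here.

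Members, gene lists and classes were chosen with earlier results of these data known. With 1 library per group no test was made, and intervals are 95% Wilson or exact Poisson intervals that cover counting error only. The Poisson intervals hold the background fixed. PCR copies of a fragment were not separable. Genes named with values were all Hsp members with a peak, the 5 highest of each Dnaj family, members with 5 or more peaks, and the 3 highest of each list. The other Dnajc genes with a peak are given by fold enrichment alone, for completeness. Strand came from the RefSeq promoter table. Alternatives changed the q-value and fold filters, peak assignment, membership, wide and narrow peaks and the summary over peaks. Python 3.11.15, pandas 2.3.3 and SciPy 1.17.1 were used.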

Additional observations from a re-analysis of the deposited data

How the results depend on the processing

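Of 146 values under alternatives, 136 stayed within the 95% interval of the reported value (Wilson for shares, from binomial order statistics for medians) and 10 did not. This count says little about robustness, as intervals from few genes are wide (0 to 79.3% for Hsph). Some values also could not move: filters cannot raise a share of 0%, and assignment by overlap gave each member the same peaks. When peaks needed a −log10 q of 10 or more, the share of chaperone genes with a peak was 22.2%, when that of all genes was 18.3%. The Dnajc share was then 10.7%. Among short genes (under 5 kb), Dnaj genes were at 0% and Hsp genes at 58.3%, against 10.3% of all genes. In the lists the same filter gave 29.4% for HSP90 cochaperones, 27.3% for HSP70 cochaperones and 21.7% for ER folding genes. When they needed a fold enrichment no lower than the list's median (5.58), the share of all genes was 21.2%, the Hsp90 share was 0%, HSP90 cochaperones stood at 35.3%, HSP70 cochaperones at 27.3% and the CCT list at 0%. Both filters remove peaks by construction, and Hspa8, Hsp90ab1 and Hspa5 lie below that fold at every peak.

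The alternatives on short genes and the count of Hspa1a and Hspa1b as 1 gene were chosen after seeing the data. No paired analysis was possible because each group had 1 library. Depth limits what can be seen, since a weakly enriched site on a transcript with few fragments gives no peak.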
